A study of Mus musculus with 6 samples.

Results

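Chromosome segregation needs the spindle to be anchored and turned within the cell, and 44 genes of the proteins that do this were followed in HL-1 cells depleted of Malat1. They were chosen by name as genes of spindle localization, of the motor dynein and its activator dynactin, of LIS1 and its partners, and of microtubule plus-tips, and they were looked up by symbol among the 21269 genes of the deposited table. Of the 44 genes, 43 were in the table and 42 had a mean normalized count of at least 5 and were tested. Insc, which encodes the adaptor Inscuteable, had normalized counts of 5, 2, and 5 in the LNA Control libraries against 3, 2, and 3 in the LNA Malat1 libraries and was not tested, and Dync1i1 was not analysed here. A normalized count is the number of reads on a gene divided by the authors by 1 factor per library and rounded to a whole number.

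HL-1 is a contractile, dividing cell line derived from a mouse atrial cardiomyocyte tumour, so all libraries come from 1 line. Cells of both groups were transfected with 50 nM of a locked nucleic acid (LNA) gapmer 24 hours after seeding and collected 48 hours after transfection. A gapmer pairs with an RNA and directs its cleavage by RNase H. LNA Control received a control gapmer and LNA Malat1 a gapmer against the long noncoding RNA Malat1, with 3 libraries in each group, numbered as replicates 1 to 3. The sources used here do not say whether the replicates came from separate cultures, so p-values measure only the spread between these libraries, which may be technical. Because a bulk library averages over cells, fewer cells in mitosis and less RNA per cell cannot be told apart.

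The total of normalized counts was 4831007 to 4921406 for the LNA Control libraries and 4758777 to 4762957 for those of LNA Malat1. Malat1 itself had 5051, 5197, and 4369 normalized counts in the LNA Control libraries against 2833, 2792, and 2732 in the LNA Malat1 libraries, with a log2 fold change of -0.80 (SE 0.07, adjusted p = 7.5e-06, limma). LNA Malat1 replicates 1 and 3 differed by no more than sampling noise over 14522 genes (chi-square of 0.949 per gene, chi-square p = 1), so they were averaged and counted as 1 sample in each mean ± SD of LNA Malat1. In the 1754 genes with the most reads they differed by more than that noise (1.09 per gene, chi-square p = 0.0031), and the test across genes used all 6 libraries. LNA Malat1 replicates 1 and 2 did not exceed the noise over 14308 genes either (1.01 per gene, chi-square p = 0.149). They did so in the 1612 genes with the most reads (1.66 per gene, chi-square p = 1.2e-56). LNA Malat1 replicates 2 and 3 exceeded it over 14397 genes (chi-square p = 5.95e-40), though by less per gene than any LNA Control pair. How many separate samples the LNA Malat1 libraries stand for is therefore uncertain. In LNA Control, replicates 1 and 3 were furthest apart, with 4.18 per gene over 13696 genes. Replicate 2 lay between them, with 2.09 against replicate 1 and 1.77 against replicate 3. The results that rest on LNA Control replicate 1 are given with and without it. Of the cardiomyocyte markers, Tnnt2, Actc1, Ryr2, and Ttn were well above the filter in every library. In contrast, Myh6, the main myosin heavy chain of adult mouse heart, had at most 7 normalized counts in any library. Myl7 and Myl4 of the same list were low, with 18 to 32 and 30 to 49 normalized counts.

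In mitosis, LGN (gene Gpsm2) and NuMA (Numa1) hold the minus-end-directed motor dynein at the cell cortex, where it pulls on astral microtubules and so positions the spindle. Dynein works together with the dynactin complex, with cargo adaptors, and with LIS1 (Pafah1b1), which binds the motor domain and is brought to it by NDEL1 or NDE1. The far ends of the microtubules are tracked by plus-tip proteins such as EB1 (Mapre1) and the CLASP proteins, and their near ends are anchored in the pericentriolar material of the centrosome. LIS1, NDE1, CDK5RAP2, and MCPH1 are known for the small or smooth brains that follow their loss. In cardiomyocytes much of the pericentriolar material moves to the nuclear envelope as the cells leave the cell cycle.

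The promoters of Pafah1b1, Ndel1, and Nde1 are shown because these genes encode LIS1 and both of its dynein-linking partners, which were lower together, and that of Clasp2 because it holds the rarest motif found. Each run is the 250 bases upstream of a RefSeq start in GRCm38.p6, written 5′ to 3′ on the gene's strand, and the capitals mark motif matches. The Pafah1b1 window is chr11:74723859-74724108 and the Ndel1 window chr11:68853136-68853385, both on the minus strand. The Nde1 window is chr16:14163025-14163274 and the window of the first of 3 Clasp2 starts chr9:113741223-113741472, both on the plus strand.
Pafah1b1: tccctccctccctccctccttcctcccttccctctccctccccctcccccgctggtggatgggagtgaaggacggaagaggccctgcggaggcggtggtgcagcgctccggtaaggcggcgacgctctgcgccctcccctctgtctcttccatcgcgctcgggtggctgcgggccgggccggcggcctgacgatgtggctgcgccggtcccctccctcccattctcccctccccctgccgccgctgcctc
Ndel1: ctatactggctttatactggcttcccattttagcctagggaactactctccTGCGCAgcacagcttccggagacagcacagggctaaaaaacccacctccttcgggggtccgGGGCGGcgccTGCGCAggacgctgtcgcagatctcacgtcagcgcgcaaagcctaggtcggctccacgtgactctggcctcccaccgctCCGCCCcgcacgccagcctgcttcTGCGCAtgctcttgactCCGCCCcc
Nde1: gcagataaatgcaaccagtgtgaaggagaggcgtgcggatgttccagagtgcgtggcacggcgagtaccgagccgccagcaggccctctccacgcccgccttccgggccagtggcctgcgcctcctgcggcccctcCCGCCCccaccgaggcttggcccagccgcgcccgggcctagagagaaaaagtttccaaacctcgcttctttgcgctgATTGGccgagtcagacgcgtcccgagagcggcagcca
Clasp2: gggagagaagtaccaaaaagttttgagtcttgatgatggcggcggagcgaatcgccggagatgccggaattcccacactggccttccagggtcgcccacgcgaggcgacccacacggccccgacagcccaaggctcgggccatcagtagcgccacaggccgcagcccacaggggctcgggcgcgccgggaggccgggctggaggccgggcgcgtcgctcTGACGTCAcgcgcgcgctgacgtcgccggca

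RefSeq promoters were found for 34 of the 42 tested genes. Both strands were searched for the CCAAT box (CCAAT), the cAMP response element (TGACGTCA), the cell cycle homology region (TTTGAA), an E2F site (TTTGGCGC), the GC box (GGGCGG), and the core of the NRF1 site (TGCGCA). The Pafah1b1 window is C-rich, with 73.2% G and C, and held none of these letter strings. The Ndel1 window held the NRF1 core at 3 places and the GC box at 3 places. The RefSeq starts of Pafah1b1 and Ndel1 both lie inside the gene as the deposited table draws it, by 812 and 18723 bases. The Nde1 window held 1 GC box and 1 CCAAT box, and the Clasp2 window held the cAMP response element. A gene was counted for a motif when any of its RefSeq promoters held it. Among the 34 genes, 22 held a GC box (64.7%) and 17 a CCAAT box (50%), against 35.4% and 37.5% of the 27025 genes with a RefSeq promoter. Those 27025 genes were not limited to expressed genes, and the share among expressed genes was not computed. The NRF1 core was in 7 of the 34 (20.6%, against 7.36%), the cell cycle homology region in 5 (14.7%, against 18.3%), the cAMP response element in 2 (5.88%, against 1.77%), and the E2F site in none (against 0.485%). Of the 17 genes that were lower in LNA Malat1, 14 had an entry, and 9 of these held a GC box, 8 a CCAAT box, 3 the NRF1 core, 3 the cell cycle homology region, and 1 the cAMP response element. These matches describe the sequence and locate no bound factor.

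The genes followed were lower in LNA Malat1 more often than higher, but 9 of the lower genes were known beforehand to be so. At an adjusted p up to 0.05 (limma on log2(normalized count + 1), adjusted over all 15650 genes tested), 17 of the 42 genes were lower (40.5%), 2 were higher (4.76%), and 23 did not pass. Of all genes tested, 14% were lower and 14.3% higher. All 42 genes had a mean of at least 100, and of the 8911 genes at that level 21.6% were lower and 11% higher. The median log2 fold change was -0.13 over the 42 genes, 0.02 over all genes tested, and -0.04 over those with a mean of at least 100. Of the 42 genes, 9 were already known to be lower in these libraries when the list was drawn up, and the count over the list is no independent evidence of a direction. Of the other 33 genes, 8 were lower (24.2%) and 2 higher, with a median of -0.05. That share and median are near the 21.6% and -0.04 of genes with a mean of at least 100. The number of lower genes was 11 without LNA Control replicate 2, 11 without LNA Malat1 replicate 1, and 10 without LNA Malat1 replicate 3. Of all genes tested, 10.2%, 9.68%, and 10.4% were lower in these analyses, also fewer than the 14% with all libraries. The number of higher genes ranged from 0 to 4 when 1 library at a time was left out, and the share of all genes tested from 8.15% to 16.8%. With LNA Malat1 replicates 1 and 3 counted as 1 sample, 12 genes were lower and 0 higher, against 10.6% and 8.64% of all genes tested. Dynlt3, Actr1a, Bicd2, Mapre1, and Kpnb1 then no longer passed (adjusted p of 0.060 to 0.145 by limma).

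Most of the changes were small. With a fold change of at least 1.5 as a further criterion, the threshold of the study's methods, 1 of the 42 genes was downregulated, Pafah1b1, and 1 was upregulated, Cep290, against 2.92% and 8% of all genes tested and 3.1% and 1.71% of those with a mean of at least 100. In each of the 17 lower genes all LNA Malat1 libraries lay below all LNA Control libraries, and the same held for 3 of the 23 genes that did not pass, Gpsm1, Dctn3, and Actr10. This lack of overlap was seen in 20.8% of all genes tested in the downward direction and in 20.5% in the upward direction, and in 30.7% and 15.8% of those with a mean of at least 100. Of the 19 genes that passed, 9 also passed in all 17 alternative analyses: Gpsm2, Pafah1b1, Ndel1, Nde1, Dync1li2, Clasp1, Clasp2, Mcph1, and Cdk5rap2.

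**Figure D1:**
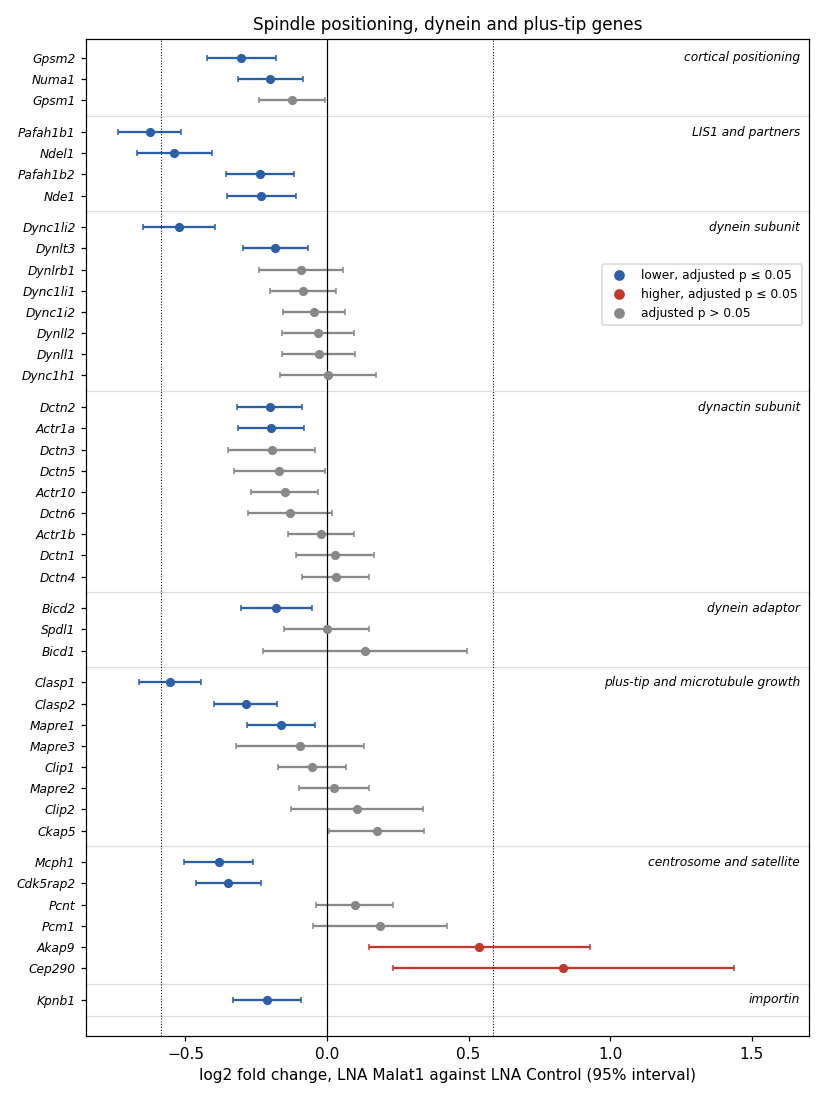
log2 fold change of LNA Malat1 against LNA Control for the 42 genes tested, grouped by role, with 95% intervals from limma; dotted lines mark a 1.5-fold change and colours the genes with an adjusted p of at most 0.05. All 4 genes of LIS1 and its partners lie to the left of 0, and the widest intervals are those of Cep290 and Akap9.

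Per kilobase of exons, Kpnb1 had the highest level in LNA Control (314 normalized counts per kb), followed by Dynlrb1 (284), Dync1li2 (271), Pcm1 (263), and Dync1h1 (225). In LNA Malat1 the order at the top was Pcm1 (298), Kpnb1 (271), Dynlrb1 (270), Dync1h1 (223), and Ckap5 (201), and Dync1li2 had 190. The lowest levels of the tested genes in LNA Control were those of Cep290 (23.6), Clip2 (27.8), and Bicd1 (28.1). Dynlrb1 and Dync1h1 encode a light chain and the heavy chain of dynein, and Pcm1 the scaffold of centriolar satellites.

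All 4 genes of LIS1 and its partners were lower in LNA Malat1. Of all genes tested 14% were lower, and of those with a mean of at least 100, 21.6%. The 9 genes known beforehand to be lower are not set apart here, so counts by role are no independent evidence of a direction. Pafah1b1 (chromosome 11, minus strand, mm10 positions 74673949 to 74724670) had 1409, 1520, and 1466 normalized counts in the LNA Control libraries against 937, 945, and 964 in the LNA Malat1 libraries. The highest LNA Malat1 library was thus well below the lowest LNA Control library, and the group means were 1465 ± 55.5 (SD, n = 3) and 947.8 ± 3.89 (SD, n = 2), so that 64.7% of the control level was left. The log2 difference was -0.63 (SE 0.05, 95% interval -0.74 to -0.52, adjusted p = 3.3e-06, limma), and leaving out any 1 library moved it only between -0.65 and -0.60.

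Ndel1 and Nde1 encode paralogous coiled-coil proteins that recruit LIS1 to dynein. Ndel1 (chromosome 11, minus strand, positions 68821434 to 68871858) had 640, 615, and 559 normalized counts in the LNA Control libraries against 401, 432, and 413 in the LNA Malat1 libraries. Nde1 (chromosome 16, positions 14163275 to 14192928) had 393, 394, and 374 in the LNA Control libraries against 333, 320, and 335 in the LNA Malat1 libraries. Both were lower in all LNA Malat1 libraries, Ndel1 with a log2 fold change of -0.54 (SE 0.06) and Nde1 with -0.23 (SE 0.06, adjusted p = 0.0082, limma). Pafah1b2 encodes a catalytic subunit of the acetylhydrolase that also contains LIS1. Its normalized counts were 1361, 1377, and 1274 in the LNA Control libraries against 1098, 1194, and 1111 in the LNA Malat1 libraries, with a log2 fold change of -0.24 (SE 0.06, adjusted p = 0.007, limma). It did not pass without LNA Malat1 replicate 1 (adjusted p = 0.054, limma).

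**Figure D2:**
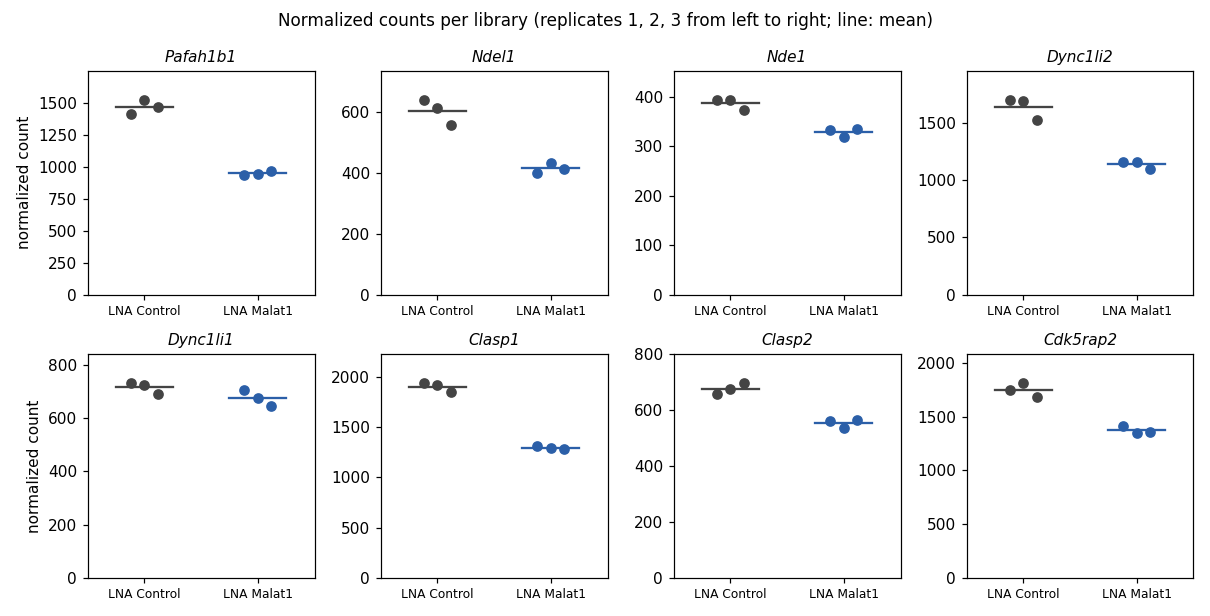
Normalized counts of 8 genes in each library, with LNA Control in grey and LNA Malat1 in blue, points for replicates 1 to 3 from left to right, and lines for the mean of the 3 libraries; each vertical axis starts at 0. In Dync1li1 the groups overlap, and in the other 7 genes every LNA Malat1 library lies below every LNA Control library.

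At the cell cortex, 2 of 3 tested genes were lower and none was higher, against 21.6% lower among genes with a mean of at least 100. Gpsm2 encodes LGN, which links the membrane-bound Gαi subunit to NuMA. It had 374, 370, and 376 normalized counts in the LNA Control libraries against 303, 312, and 293 in the LNA Malat1 libraries, the narrowest spread of any of the 17 lower genes in LNA Control, and a log2 fold change of -0.30 (SE 0.06, adjusted p = 0.0016, limma). Of its exonic bases, 5.19% are shared with Clcc1 on the opposite strand, and reads there cannot be assigned with certainty because it is not stated whether the counting used the strand. Numa1 encodes NuMA, which binds dynein and dynactin. Its normalized counts were 1425, 1377, and 1332 in the LNA Control libraries against 1249, 1182, and 1166 in the LNA Malat1 libraries, with a log2 fold change of -0.20 (SE 0.05, adjusted p = 0.014, limma). Without LNA Malat1 replicate 2 or 3, Numa1 did not pass (adjusted p of 0.065 and 0.077 by limma). Gpsm1, the paralog of Gpsm2, had 670, 635, and 636 in the LNA Control libraries against 571, 590, and 620 in the LNA Malat1 libraries, and its log2 fold change of -0.12 did not pass (adjusted p = 0.1, limma).

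Of the 8 tested dynein subunit genes, 2 were lower (25%) and none was higher. That share is near the 21.6% lower among genes with a mean of at least 100. Dync1li2 (chromosome 8, positions 104417680 to 104443047) encodes a light intermediate chain, the subunit to which adaptors bind. Its normalized counts were 1699, 1689, and 1520 in the LNA Control libraries against 1157, 1160, and 1093 in the LNA Malat1 libraries, with means of 1636 ± 101 (SD, n = 3) and 1142 ± 24.7 (SD, n = 2). The log2 fold change was -0.52 (SE 0.06, adjusted p = 3.7e-05, limma), and 7.08% of its exonic bases are shared with K230015D01Rik on the opposite strand. Dynlt3, a light chain gene on the X chromosome, had 575, 583, and 539 in the LNA Control libraries against 493, 495, and 505 in the LNA Malat1 libraries. On the log2 scale its fold change was -0.18 (SE 0.05, adjusted p = 0.021, limma), which did not pass without LNA Control replicate 2 or without any of the LNA Malat1 libraries (adjusted p of 0.055 to 0.082 by limma).

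The heavy chain gene Dync1h1, which encodes the motor itself, had 3947, 3488, and 3155 normalized counts in the LNA Control libraries against 3631, 3409, and 3529 in the LNA Malat1 libraries. The groups overlapped, and the log2 fold change was 0.00 with a 95% interval from -0.17 to 0.17. Its sign changed with the analysis, from -0.08 to 0.09 with 1 library left out. Dync1li1, the paralog of Dync1li2, had 732, 727, and 692 in the LNA Control libraries against 706, 678, and 646 in the LNA Malat1 libraries, with a log2 fold change of -0.08 (95% interval -0.20 to 0.03, adjusted p = 0.27, limma). The intermediate chain gene Dync1i2 and the light chain genes Dynll1, Dynll2, and Dynlrb1 had log2 fold changes from -0.09 to -0.03 and did not pass. The lowest bound of their 95% intervals was -0.24, that of Dynlrb1, and the highest was 0.10.

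Dynactin is built around a short filament of the actin-related protein encoded by Actr1a and Actr1b, with a shoulder that holds the Dctn2 and Dctn3 products and the large subunit encoded by Dctn1. Of the 9 tested subunit genes 2 were lower (22.2%) and none was higher. That share is near the 21.6% lower among genes with a mean of at least 100. Dctn2 had 540, 532, and 499 normalized counts in the LNA Control libraries against 460, 453, and 451 in the LNA Malat1 libraries (log2 fold change -0.20, SE 0.05, adjusted p = 0.013, limma). Actr1a had 703, 714, and 658 in the LNA Control libraries against 584, 624, and 601 in the LNA Malat1 libraries (log2 fold change -0.20, SE 0.05, adjusted p = 0.016, limma). In both genes the groups were separate but close, and with 1 library left out the adjusted p (limma) reached 0.054 for Dctn2 and 0.088 for Actr1a. Dctn2 did not pass without LNA Control replicate 2 or LNA Malat1 replicate 3, and Actr1a did not pass without either of these or without LNA Malat1 replicate 1. Dctn3 (-0.20) and Actr10 (-0.15), which encodes a subunit at the pointed end of the filament, lay just past the threshold with adjusted p of 0.058 and 0.056 by limma. Both passed without LNA Control replicate 3 (adjusted p of 0.043 and 0.040 by limma). Dctn5, Dctn6, and Actr1b had log2 fold changes from -0.17 to -0.02, and Dctn1 and Dctn4 had 0.03 each.

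Among the 3 adaptor genes, Bicd2, whose product joins dynein to dynactin and cargo, had 719, 807, and 742 normalized counts in the LNA Control libraries against 679, 685, and 638 in the LNA Malat1 libraries. On the log2 scale its fold change was -0.18 (SE 0.06, adjusted p = 0.036, limma), and it passed in 8 of 17 alternative analyses. It did not pass without LNA Control replicate 2 (adjusted p = 0.151, limma) or without any of the LNA Malat1 libraries. Spdl1 encodes Spindly, the adaptor at kinetochores. It had 291, 310, and 293 in the LNA Control libraries against 292, 325, and 278 in the LNA Malat1 libraries, and its log2 fold change was -0.00 (95% interval -0.15 to 0.15).

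Among 8 plus-tip and microtubule growth genes, 3 were lower (37.5%) and none was higher, against 21.6% lower among genes with a mean of at least 100. The CLASP proteins stabilize microtubules at their growing ends and at the cortex. Clasp1 (chromosome 1, positions 118389058 to 118612678) had 1938, 1922, and 1853 normalized counts in the LNA Control libraries against 1315, 1288, and 1286 in the LNA Malat1 libraries, 68% of LNA Control, with a log2 fold change of -0.55 (SE 0.05). Clasp2 had 658, 678, and 697 in the LNA Control libraries against 560, 538, and 567 in the LNA Malat1 libraries, 81.3% of LNA Control, with a log2 fold change of -0.29 (SE 0.05). Mapre1, which encodes the end-binding protein EB1, had 1169, 1165, and 1062 in the LNA Control libraries against 1002, 1043, and 986 in the LNA Malat1 libraries. Its fall was the smallest of the 17 (log2 fold change -0.16, SE 0.06, adjusted p = 0.044, limma), and with 1 library left out it passed in the analysis without LNA Control replicate 3 but in none of the other 5, where the adjusted p (limma) reached 0.161. Clip1, Mapre2, and Mapre3 had log2 fold changes of -0.05, 0.03, and -0.10, with overlapping groups. Clip2 had 0.11, with 164, 148, and 120 normalized counts in the LNA Control libraries against 154, 147, and 161 in the LNA Malat1 libraries.

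The centrosome and satellite genes moved in both directions, with 2 lower and 2 higher among 6 (33.3% each). Among genes with a mean of at least 100, 21.6% were lower and 11% higher. Cdk5rap2 encodes a pericentriolar protein that recruits and activates the gamma-tubulin complex. It had 1750, 1813, and 1683 normalized counts in the LNA Control libraries against 1410, 1353, and 1355 in the LNA Malat1 libraries, with a log2 fold change of -0.35 (SE 0.05, adjusted p = 0.00039, limma). Mcph1, which encodes microcephalin, had 664, 711, and 698 in the LNA Control libraries against 505, 527, and 559 in the LNA Malat1 libraries, with a log2 fold change of -0.38 (SE 0.06, adjusted p = 0.00032, limma). In both genes every LNA Malat1 library was below every LNA Control library by a wide margin. Pcnt, which encodes pericentrin, had 992, 924, and 921 in the LNA Control libraries against 1100, 946, and 993 in the LNA Malat1 libraries (log2 fold change 0.10, adjusted p = 0.27, limma). Kpnb1, the gene of importin beta, which holds spindle factors inactive away from chromosomes, had 2140, 2106, and 1955 in the LNA Control libraries against 1754, 1811, and 1779 in the LNA Malat1 libraries. On the log2 scale its fold change was -0.21 (SE 0.06, adjusted p = 0.012, limma), and 7.07% of its exonic bases are shared with Gm11583 on the opposite strand. Kpnb1 did not pass without LNA Control replicate 2, LNA Malat1 replicate 1, or LNA Malat1 replicate 3 (adjusted p of 0.055, 0.075, and 0.060 by limma).

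The 2 higher genes, Cep290 and Akap9, spread over a wider range within LNA Control than the distance between the group means. Cep290 encodes a protein of the ciliary transition zone and of centriolar satellites. It had 136, 265, and 423 normalized counts in the LNA Control libraries against 503, 418, and 414 in the LNA Malat1 libraries, so LNA Control replicate 3 lay inside the range of LNA Malat1. Its log2 fold change was 0.83 (SE 0.28, 95% interval 0.23 to 1.44, adjusted p = 0.04, limma). Without LNA Control replicate 1 it was 0.40 (adjusted p = 0.023, limma), under 1.5-fold. Of its exonic bases, 7.58% are shared with 4930430F08Rik on the opposite strand. Akap9 encodes a large kinase-anchoring protein of the centrosome and Golgi. It had 948, 1519, and 1954 in the LNA Control libraries against 2126, 2040, and 1986 in the LNA Malat1 libraries, with a log2 fold change of 0.54 (SE 0.18, adjusted p = 0.042, limma), or of 0.25 without LNA Control replicate 1 (adjusted p = 0.019, limma). When LNA Malat1 replicates 1 and 3 were counted once, neither gene passed (adjusted p = 0.14 for each, limma). Leaving out 1 library at a time, the adjusted p lay between 0.00074 and 0.161 for Cep290 and between 0.0012 and 0.146 for Akap9, and neither passed without LNA Control replicate 2 or without any of the LNA Malat1 libraries.

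A wide spread within LNA Control was also seen in Bicd1, Pcm1, and Ckap5. Bicd1, the paralog of Bicd2, had 518, 788, and 1002 normalized counts in the LNA Control libraries against 783, 804, and 859 in the LNA Malat1 libraries. The log2 fold change of 0.13 became -0.13 without LNA Control replicate 1. Pcm1 had 1539, 2123, and 2227 in the LNA Control libraries against 2258, 2258, and 2107 in the LNA Malat1 libraries (0.19, adjusted p = 0.22, limma), and without LNA Control replicate 3 it passed (0.29, adjusted p = 0.042, limma), whereas without LNA Control replicate 1 the value was 0.02 (adjusted p = 0.814, limma). Ckap5, which encodes a microtubule polymerase, had 1454, 1712, and 1857 in the LNA Control libraries against 1856, 1943, and 1847 in the LNA Malat1 libraries (0.18, adjusted p = 0.11, limma), and it too passed without LNA Control replicate 3 (0.25, adjusted p = 0.0089, limma) and had 0.08 without LNA Control replicate 1 (adjusted p = 0.324, limma). In each of Cep290, Akap9, Bicd1, Pcm1, and Ckap5, LNA Control replicate 1 was the lowest of the 6 libraries.

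Across the 42 genes, the log2 difference of LNA Control replicate 3 minus replicate 1 was related to the GC content of the longest transcript (Pearson's r = -0.54, Spearman's rho = -0.54). Over 10488 genes with a mean of 50 or more, r was -0.46. These are correlations across genes, which share the same pair of libraries, and are given as a description. Over those 10488 genes the median difference was 0.18 in the eighth with the lowest GC content (30.8% to 41.5%) and -0.11 in the eighth with the highest. The GC content was 38.6% for Bicd1, 38.7% for Cep290, 41.3% for Pcm1, 43.9% for Ckap5, and 44.8% for Akap9. In the eighths that hold Ckap5 and Akap9 the median difference was 0.04 and -0.0037, against 0.35 and 1.04 for the genes themselves. In the lowest eighth, Dynlt3 (-0.09), Dync1i2 (-0.005), Pafah1b1 (0.06), and Dctn4 (0.07) differed little between replicates 3 and 1. The part of GC content in the spread of single genes was not tested. At the other end, Clip2 (60.3%) was lower by 0.45 in replicate 3 and Dync1h1 (53.7%) by 0.32. The LNA Control range exceeded 0.3 on the log2 scale in 7 of the 42 genes, and the LNA Malat1 range did so in 1. The range was wider in LNA Control than in LNA Malat1 in 61.9% of the 42 genes and in 63.6% of all genes tested. After a correction of each library for GC content, the log2 fold change was 0.68 for Cep290, 0.55 for Akap9, and -0.71 for Pafah1b1. The same numbers of genes passed, 17 lower and 2 higher, but not the same genes. Bicd2 no longer passed (adjusted p = 0.054, limma), and Actr10 newly passed (adjusted p = 0.028, limma). The log2 fold change between the groups had a correlation with GC content of r = -0.13 (rho = -0.06) over the 42 genes and of r = -0.09 (rho = -0.11) over the 10488, and its median was 0.08 in the eighth with the lowest GC content and -0.03 in the eighth with the highest.

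**Figure D3:**
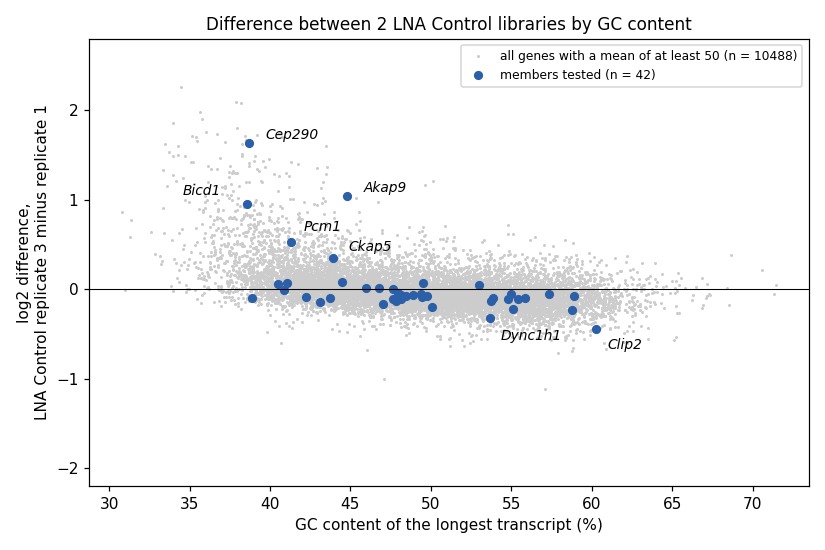
log2 difference of LNA Control replicate 3 minus replicate 1 against the GC content of the longest transcript of each gene, for the 42 genes tested (blue) and for 10488 genes with a mean of 50 or more (grey). Cep290, Akap9, Bicd1, Pcm1, and Ckap5 lie above 0.3, while Clip2 and Dync1h1 lie below -0.3.

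Related genes were then compared with each other. For 11 pairs the log2 ratio of the normalized counts was taken within each library, which removes any factor common to a library. In 6 of the 11 pairs the ratios of the groups did not overlap. This share was not computed for other pairs of genes, and for single genes lack of overlap was seen in 20.8% downward and 20.5% upward, so nothing is read from the count itself. The exact permutation test (two-sided, 3 against 3 libraries) gave p = 0.1 for each of these 6, the smallest it can give, and 0.183 after adjustment over the 11 pairs, so no pair can pass this test. Clasp1 had 2.07, 1.99, and 1.87 times the level of Clasp2 per kilobase of exons in LNA Control and 1.65, 1.68, and 1.60 times in LNA Malat1. The difference in the log2 ratio was -0.27 (SE 0.05). Each SE of a ratio difference took the 3 libraries of each group as separate samples, without averaging LNA Malat1 replicates 1 and 3. Ndel1 had 1.60, 1.54, and 1.47 times the level of Nde1 per kilobase in LNA Control and 1.19, 1.33, and 1.21 times in LNA Malat1, a difference of -0.31 (SE 0.06) on the log2 scale. Pafah1b1 and Pafah1b2 were nearly equal per kilobase in LNA Control (ratios of 0.89, 0.95, and 0.99), and the ratio was 0.73, 0.68, and 0.75 in LNA Malat1, a difference of -0.39 (SE 0.06).

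Of the light intermediate chains, Dync1li1 had 0.67, 0.67, and 0.71 times the level of Dync1li2 per kilobase in LNA Control and 0.95, 0.91, and 0.92 times in LNA Malat1, a difference of 0.44 (SE 0.03) on the log2 scale, the largest of the 6. The ratio of Actr1a to Actr1b differed by -0.18 (LNA Malat1 minus LNA Control) and that of Gpsm1 to Gpsm2 by 0.18. In contrast, the ratio of the light chain genes Dynll1 and Dynll2 differed by less than its spread, with log2 values of -0.78, -0.68, and -0.69 in the LNA Control libraries against -0.72, -0.71, and -0.72 in LNA Malat1. The pairs Bicd1 and Bicd2, Clip1 and Clip2, Mapre1 and Mapre3, and Pcnt and Akap9 overlapped between the groups, with exact permutation p from 0.3 to 0.6. Without any 1 library, between 6 and 8 pairs did not overlap.

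**Figure D4:**
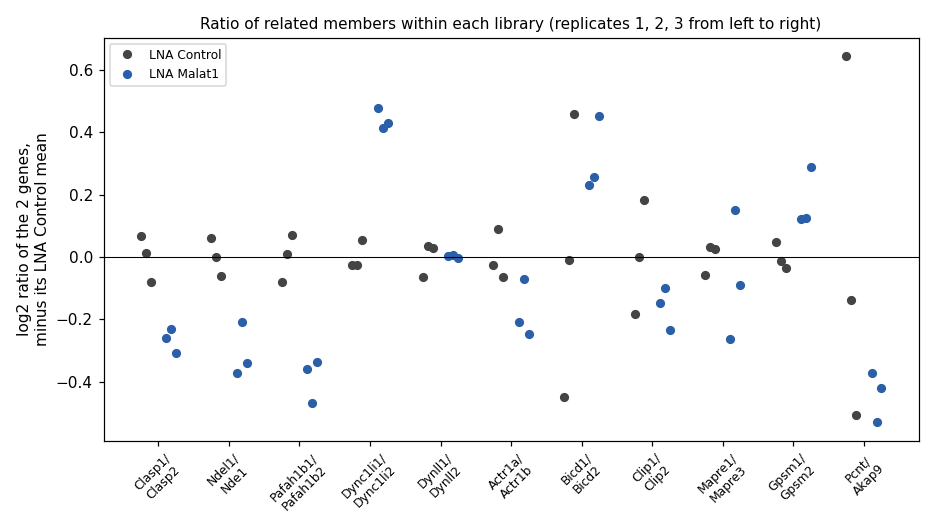
log2 ratio of the normalized counts of 2 related genes within each library, minus the mean of that ratio in LNA Control, for 11 pairs; grey points are LNA Control and blue points LNA Malat1, with replicates 1 to 3 from left to right. The ratio of Dync1li1 to Dync1li2 is higher in all LNA Malat1 libraries, those of Clasp1, Ndel1, and Pafah1b1 to their paralogs are lower, and that of Dynll1 to Dynll2 stays near 0.

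To place these genes, 72 other genes of the same pathways were listed, of which 67 were in the table and 64 were tested. Of the 64 genes, 12 were lower (18.8%) and 6 higher (9.38%), against 14% and 14.3% of all genes tested and 21.6% and 11% of those with a mean of at least 100, with a median log2 fold change of -0.02. With the 1.5-fold criterion 5 were downregulated and none was upregulated. Among 16 other cortical positioning genes, 3 were lower and none higher. Pard3, which encodes the polarity scaffold PAR3 and binds Inscuteable, had 1110, 1204, and 1193 normalized counts in the LNA Control libraries against 474, 432, and 504 in the LNA Malat1 libraries, with a log2 fold change of -1.31 (SE 0.06, adjusted p = 1.3e-07, limma). Its relative Pard3b had 488, 506, and 549 in the LNA Control libraries against 266, 285, and 281 in the LNA Malat1 libraries (-0.89, SE 0.06). Both falls were larger than that of any of the 42 genes.

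Among 17 other plus-tip genes, 5 were lower and 2 higher. Slain2, whose product works with Ckap5 and CLIP proteins in microtubule growth, had 1258, 1283, and 1229 normalized counts in the LNA Control libraries against 721, 730, and 709 in the LNA Malat1 libraries (log2 fold change -0.80, SE 0.05, adjusted p = 3.4e-07, limma). Clip4 was low, with 9, 14, and 13 in the LNA Control libraries against 5, 6, and 4 in the LNA Malat1 libraries (-1.11, SE 0.34). The higher genes were Gtse1 (0.41), which encodes a microtubule-bound protein of the dividing cell, and Tacc1 (0.20). Among 18 other pericentriolar and gamma-tubulin genes, 4 were lower and 3 higher. Cep152, a centriole duplication gene, had 376, 422, and 383 in the LNA Control libraries against 217, 197, and 195 in the LNA Malat1 libraries (-0.95, SE 0.07, adjusted p = 1.3e-06, limma). Tubgcp4 was lower (-0.31), while Tubgcp6 (0.38) and Cep72 (0.46) were higher. Of 11 other dynein adaptor genes 1 was higher, Hook2 (0.37), and of 3 other light and intermediate chain genes none passed.

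Markers of mitotic cells were listed because many of these genes act in mitosis. Of 14 markers, 4 were lower (28.6%), Ccnb1, Ccna2, Cdk1, and Aurka, with log2 fold changes from -0.26 to -0.17, and 1 was higher (7.14%), Bub1 (0.22). For this and the marker counts below, 14% of all genes tested were lower and 14.3% higher. Among genes with a mean of at least 100, 21.6% were lower and 11% higher. Of the 14, 11 had a negative value and the median was -0.11, against -0.13 for the 42 spindle genes, and in 6 of the 14 all LNA Malat1 libraries were below all LNA Control libraries (20.8% of all genes tested, 30.7% of those with a mean of at least 100). Their summed level lay between 15698 and 17939 normalized counts in LNA Control and between 16575 and 17357 in LNA Malat1, so the groups overlapped. Mki67 and Cenpe were lowest in LNA Control replicate 1, with 3273 and 1018 against at least 4235 and 1736 in the other libraries. Of 8 tested cardiomyocyte markers 3 were higher, Actn2 (0.71), Ttn (0.66), and Tnnt2 (0.15), and their summed level was 12446 to 16302 in LNA Control and 18979 to 20313 in LNA Malat1. Most of that sum was Ttn, and without it the sums overlapped (3844 to 4192 in LNA Control and 3867 to 3993 in LNA Malat1). Markers of other cell types also moved. Of 4 fibroblast markers 1 was lower, Col3a1 (-0.33), with sums of 5304 to 5911 and 4683 to 4817. All 4 had a negative value, with a median of -0.28. Without Col3a1 the sums did not overlap either (2928 to 3362 in LNA Control and 2685 to 2757 in LNA Malat1). Of 4 smooth muscle and pericyte markers 2 were higher, Pdgfrb (1.42) and Cnn1 (0.40), with sums of 147 to 160 and 199 to 220. Most of that sum was Cnn1, and without it the sums overlapped (32 to 52 in LNA Control and 51 to 71 in LNA Malat1). Myh11 of the same list was lower and did not pass (-0.60, adjusted p = 0.15, limma). Its values were 18, 22, and 21 in LNA Control against 17, 16, and 8 in LNA Malat1. The macrophage markers Csf1r (1.19) and Cd68 (0.79) were both higher at low levels, with sums of 32 to 36 and 54 to 81, while neither of 2 endothelial markers passed (19 to 28 and 32 to 35). Without Cd68 the macrophage values did not overlap (10 to 22 and 23 to 43), and without Tek the endothelial values did (1 to 10 and 8 to 17). Of the fibroblast markers Col1a2 had at most 1 normalized count in any library, whereas Col1a1, Col3a1, and Postn were all at 800 or more in each. The part of these markers in the differences of the spindle genes was not tested.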

How the data were processed

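RNA-seq libraries of HL-1 cells, 3 per group, were grouped by the sample titles. Per the study's methods and processing notes, the authors used Trimmomatic 0.39 for trimming, STAR 2.7.7a for alignment to mm10, and featureCounts 1.6.5 for counting reads on exons, discarding those on more than 1 gene or region, followed by DESeq2 1.30.0. Whether counting used the strand is not given in the sources used here. The deposited values are a score: counts per gene that the authors divided by a factor for each library and then rounded. The factors, recovered from the steps that rounding leaves, gave 4512277 to 5592914 reads on genes per library. Chi-square comparisons of these reads cover counting error only.

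Of 21269 genes, 15650 reached a mean of at least 5 and entered the test, limma 3.58.1 (R 4.3.3) on log2(normalized count + 1) with the trend option for intensity. The test was two-sided, with Benjamini-Hochberg adjustment over all genes tested. Fold changes on this scale understate the change of low genes. Genes passed at an adjusted p up to 0.05, and were called up- or downregulated with a fold change of at least 1.5 as well. The steps were tested on simulated data. The genes followed and the other lists were chosen with earlier results of these data known. All genes followed may be named, and from each other list the 2 largest rises and the 2 largest falls that passed, besides Malat1. Markers named otherwise were chosen after their values were seen. Positions are those of the deposited table (mm10), exonic lengths and GC content come from GENCODE M21, and promoters from RefSeq (GRCm38.p6). Alternatives were other pseudocounts, scalings, filters, and fold minimums, the replicate number as a block, each library left out, LNA Malat1 replicates 1 and 3 averaged, voom on recovered reads, and, chosen after seeing the data, a correction for GC content (loess, span 0.3).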

Additional observations from a re-analysis of the deposited data

How the results depend on the processing

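Of 714 log2 fold changes of single spindle genes under 17 alternatives each, 623 kept their direction and their side of the threshold, 51 no longer passed, 8 passed newly, and 32 reversed, all of these in 12 genes that did not pass. The number of lower genes was 12 to 19 under the alternatives other than leaving out a library. The value of 12 came with LNA Malat1 replicates 1 and 3 counted once and with quantile normalization. Without 1 library the number was 10 to 19. It was 11 without LNA Control replicate 2, 11 without LNA Malat1 replicate 1, and 10 without LNA Malat1 replicate 3. Of all genes tested, 10.2%, 9.68%, and 10.4% were lower in these analyses, against 14% with all libraries. The number of higher genes was 0 without a filter on low values and when LNA Malat1 replicates 1 and 3 were counted once, and 0 to 4 without 1 library (0 without LNA Control replicate 2 or any LNA Malat1 library, 4 without LNA Control replicate 3). The number downregulated by at least 1.5-fold was 0 with quantile normalization, 0 with a fold change of at least 2, and 1 to 2 without 1 library (2 without LNA Control replicate 3). The number upregulated was 0 without a filter, 0 with that pair counted once, 0 with a fold change of at least 2, and 0 to 2 without 1 library (2 without LNA Control replicate 3, 0 without any other). Of the other genes of the pathways, 3 were higher with that pair counted once, and 3 to 8 without 1 library (3 without LNA Malat1 replicate 1 or 3). The Malat1 log2 fold change lay between -0.88 and -0.75. The causes of these shifts were not tested, although each analysis without a library has fewer samples.

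The labels do not tie a replicate number to a shared culture or batch, and same-numbered libraries deviated together only weakly (r = 0.086, 0.182, and 0.083 over 10490 genes), so no pairing was assumed, although every library correlated best with that of its own number, a hint from the data and not the design. A fit with replicate number as a block gave 17 genes lower and 2 higher, with the same 17 passing, and 1 downregulated and 1 upregulated by 1.5-fold. For the other pathway genes the block moved no count past 1.5 times, and Malat1 had -0.80.

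The reversals were small. Quantile normalization gave 0.0038 for Dync1i2, 0.0012 for Clip1, 0.024 for Dynll1, 0.037 for Dynll2, 0.037 for Actr1b, and 0.051 for Spdl1. Library totals set equal gave 0.0068 for Dynll1, 0.0057 for Dynll2, 0.015 for Actr1b, and 0.036 for Spdl1. Median-of-ratios scaling gave -0.016 for Dync1h1. Counting LNA Malat1 replicates 1 and 3 once gave -0.0089 for Dync1h1 and 0.031 for Spdl1. The GC content correction gave -0.038 for Dctn4, -0.021 for Bicd1, and 0.022 for Spdl1. Without 1 library the ranges were -0.075 to 0.086 for Dync1h1, -0.057 to 0.0083 for Dynll1, -0.058 to 0.013 for Dynll2, -0.055 to 0.0055 for Actr1b, -0.033 to 0.086 for Dctn1, -0.013 to 0.064 for Dctn4, -0.13 to 0.35 for Bicd1, -0.064 to 0.048 for Spdl1, -0.018 to 0.21 for Clip2, and -0.0071 to 0.070 for Mapre2.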
